A study of Mus musculus with 12 samples.

Results

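Setdb1 and 7 genes of its direct cofactors were followed across the study's 4 groups: Atf7ip, Atf7ip2, Trim28, 2810474O19Rik, Mphosph8, Pphln1 and Morc2a. They were chosen by name, with earlier results of these data known, and make up 8 of the 26061 genes in the table. All 8 passed the filter on low values that left 14487 genes for testing. The gene listed as 2810474O19Rik is Resf1 in RefSeq and is called Resf1 from here on. The cells were E14, a mouse embryonic stem cell line of 129/Ola background, grown on gelatin without feeder cells. One medium was serum with LIF, which the submitters call primed, and the other was 2i, a serum-free medium with LIF, a MEK inhibitor (PD0325901) and a GSK3 inhibitor (CHIR99021). In each medium cells carried a lentiviral pLKO.1 vector with either an shRNA against Setdb1 (shSetdb1) or a scrambled shRNA (shScr). All 4 groups were put under 1 µg/ml puromycin 48 hours after infection and were harvested after 3 days of it, with 3 libraries per group. The labels name no other shRNA against Setdb1 and no rescue, so loss of Setdb1 and other effects of the shRNA cannot be told apart. They do not say whether the libraries of a group came from separate cultures, so the spread behind each p-value is only that among these libraries and may be technical.

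SETDB1 is a histone methyltransferase that places trimethylation on lysine 9 of histone H3 (H3K9me3), a mark of silent chromatin, and in mouse embryonic stem cells it is best known for silencing endogenous retroviruses. ATF7IP binds SETDB1, holds it in the nucleus and protects it from degradation, and ATF7IP2 is a relative of ATF7IP. TRIM28, also called KAP1, is brought to DNA by KRAB zinc finger proteins and in turn recruits SETDB1. RESF1 is known as a retroelement silencing factor that binds SETDB1. MPHOSPH8 and PPHLN1 are subunits of the HUSH complex, which silences retroelements and foreign DNA together with SETDB1 and the ATPase MORC2, encoded in the mouse by Morc2a.

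The libraries held 4821181 to 15509401 gene reads, and the lowest total was that of 2i shSetdb1 library 3. Values below are normalised reads, meaning the reads recovered from the deposited values divided by the size factor of each library. The share of repeat reads that fell on structural RNA families was highest in library 3 of all 4 groups, at 42.6 to 69.5%, against 15.6 to 55.6% in libraries 1 and 2. Pluripotent stem cell markers summed to 29845 to 57707 normalised reads per library over all groups. All 7 of the list were present in each group, but Utf1 was at 0 in the lowest library of 2i shSetdb1. The 6 trophoblast markers summed to 201 to 849 reads with Elf5 at 0 in all 12 libraries, the 5 neural markers in the table to 349 to 852, and the 6 primitive endoderm markers to 5.53 to 143. The 6 fibroblast markers summed to 5.78 to 31.0 reads in 2i shScr and 114 to 764 in 2i shSetdb1, mostly from Lum, and to 27.1 to 105 in both serum groups. The fibroblast genes Col3a1 and Dcn were at 0 in both control groups and in serum shSetdb1. The summed 8 markers of naive pluripotency stood at 7284 to 9149 reads in serum shSetdb1 and 9534 to 15002 in serum shScr, and in 2i the 2 groups overlapped at 15146 to 26617. Dppa3 of that list had 42.3 to 164 reads in serum shScr and 405 to 1850 in serum shSetdb1. The 6 primed epiblast markers summed to 986 to 4564 reads in serum shScr and 1763 to 10764 in serum shSetdb1, and to 879 to 3861 over both 2i groups. The part of these differences in the members' results was not tested. In bulk RNA, fewer cells of a type and less RNA per cell cannot be told apart.

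Setdb1, the gene targeted by the shRNA, checks the labels. In serum, shScr libraries 1 to 3 had 2959, 2237 and 1587 normalised reads of it and shSetdb1 libraries 418, 379 and 409. In 2i, the shScr libraries had 3607, 2724 and 2253 and the shSetdb1 libraries 837, 610 and 340. The groups did not overlap in either medium, and the knockdown libraries spread over 1.1-fold in serum and 2.46-fold in 2i. Against the mean of the controls, 18.5, 16.8 and 18.1% of the Setdb1 level was left in the serum knockdown libraries, and 29.2, 21.3 and 11.9% in those of 2i. By that measure the lowest remainder was in 2i library 3, where it rests on 123 reads in the shallowest library. Against the control of the same number, 14.1, 16.9 and 25.8% was left in serum libraries 1 to 3. In 2i libraries 1 to 3 it was 23.2, 22.4 and 15.1%. Setdb1 fell by 2.33 on the log2 scale in serum (SE 0.330, limma adjusted p = 0.00219) and by 2.24 in 2i (SE 0.330, limma adjusted p = 0.00173). These were the lowest log2 change of all 14487 genes in serum and the lowest but 1 in 2i. The difference between the media was 0.09 (95% interval −0.91 to 1.08, limma adjusted p = 1.00).

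**Figure D1:**
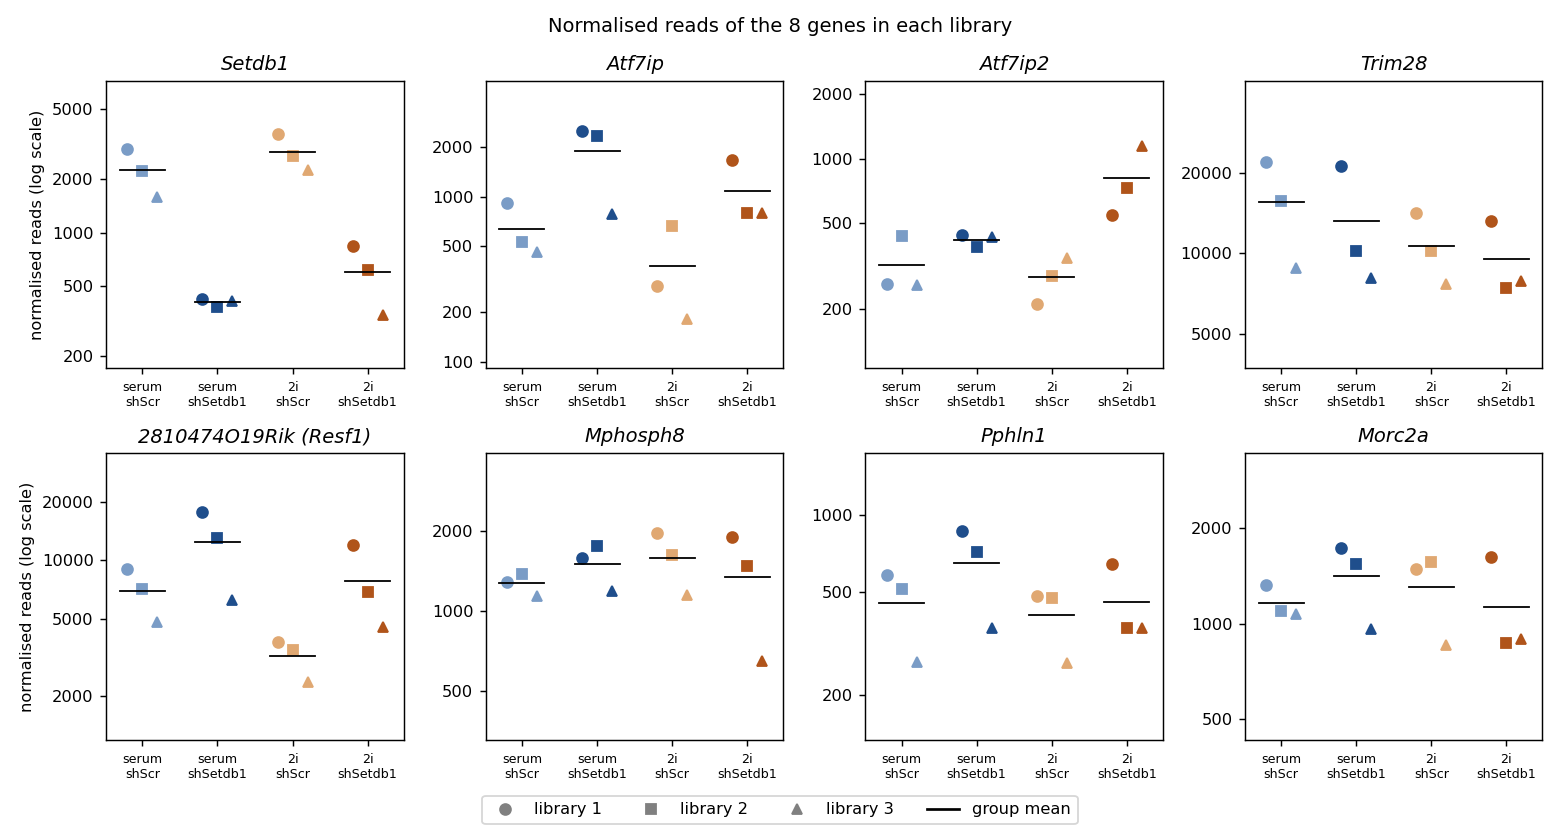
Normalised reads of each of the 8 genes in the 12 libraries, on log axes, with a marker per library number and a bar at the group mean. Setdb1 is the gene with separate shScr and shSetdb1 groups in both media, and Atf7ip, Atf7ip2 and Resf1 are separate in 2i.

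Of the cofactors, Atf7ip, Atf7ip2 and Resf1 had the highest estimates in 2i after knockdown. Their promoters and that of Setdb1 are printed, since the RNA of these 4 genes differed most between the shRNAs in 2i. Each window runs from 250 bases before to 50 after the annotated start, from RefSeq on GRCm38.p6, 5′ to 3′ on the strand of the gene. That build is not the mm9 build of the study, so the windows give sequence and not the position of any read. Capitals mark CCAAT, or ATTGG where the box lies on the other strand, the recognition sequence of the factor NF-Y. The windows are chr3:95357153-95357452 (minus strand) for Setdb1, chr6:136518601-136518900 (plus strand) for Atf7ip, chr16:10192656-10192955 (plus strand) for Atf7ip2 and chr6:149309164-149309463 (plus strand) for Resf1.
Setdb1: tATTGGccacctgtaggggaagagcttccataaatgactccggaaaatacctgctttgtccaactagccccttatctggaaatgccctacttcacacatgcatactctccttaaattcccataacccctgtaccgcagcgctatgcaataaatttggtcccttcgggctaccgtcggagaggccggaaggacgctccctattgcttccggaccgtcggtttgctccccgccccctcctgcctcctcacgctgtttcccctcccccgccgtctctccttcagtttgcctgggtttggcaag
Atf7ip: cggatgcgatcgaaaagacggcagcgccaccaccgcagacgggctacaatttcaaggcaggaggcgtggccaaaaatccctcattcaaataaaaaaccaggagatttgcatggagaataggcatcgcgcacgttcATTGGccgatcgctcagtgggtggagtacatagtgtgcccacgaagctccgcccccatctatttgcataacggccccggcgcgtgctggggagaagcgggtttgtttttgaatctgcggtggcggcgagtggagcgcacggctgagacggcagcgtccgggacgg
Atf7ip2: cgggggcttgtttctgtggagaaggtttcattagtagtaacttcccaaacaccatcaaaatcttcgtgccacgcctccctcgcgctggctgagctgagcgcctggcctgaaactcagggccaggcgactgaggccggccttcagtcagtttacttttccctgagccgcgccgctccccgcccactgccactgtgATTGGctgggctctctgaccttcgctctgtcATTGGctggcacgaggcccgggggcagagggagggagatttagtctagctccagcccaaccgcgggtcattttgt
Resf1: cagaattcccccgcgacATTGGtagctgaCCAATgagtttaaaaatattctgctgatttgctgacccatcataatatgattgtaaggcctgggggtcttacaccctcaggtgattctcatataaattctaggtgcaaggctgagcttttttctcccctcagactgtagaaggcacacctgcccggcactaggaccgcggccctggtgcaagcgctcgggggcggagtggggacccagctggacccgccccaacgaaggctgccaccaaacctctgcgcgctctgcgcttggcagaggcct

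A CCAAT box, searched on both strands, was in all 4 of these windows, with 1 match for Setdb1 and Atf7ip and 2 for Atf7ip2 and Resf1. Of all 32851 promoter windows of the same length, 37.4% held one. Among the other members, Mphosph8 had 2 matches, 1 of the 2 windows of Morc2a had 1, and Trim28 and both windows of Pphln1 had none. The motif CCGCCC was also in all 4 of these windows, and in 35.7% of all windows. It was in those of Trim28 and Mphosph8 and in 1 of the 2 of Morc2a, but in neither of Pphln1. CG dinucleotides numbered 15 for Setdb1, 29 for Atf7ip, 17 for Atf7ip2 and 13 for Resf1, against a median of 7 over all windows. The other members had 23 (Trim28), 28 (Mphosph8), 53 and 52 (Pphln1) and 46 and 0 (Morc2a). The TATAAA motif was in the Resf1 window, in 1 of the 2 windows of Morc2a and in 13.6% of all windows. CCGGAA, the core of ETS factor sites, was in the Setdb1 window 3 times, in both windows of Pphln1 and in 14.9% of all windows. These matches describe the letters and no binding was measured.

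Atf7ip, whose product stabilises SETDB1, rose after knockdown when both media were averaged. In serum the controls had 911, 533 and 463 normalised reads and the knockdown libraries 2492, 2335 and 788. In 2i the controls had 287, 665 and 183 and the knockdown libraries 1662, 792 and 791. The groups overlapped in serum, where the lowest knockdown library lay below the highest control, and did not overlap in 2i. The means differed 2.94-fold in serum and 2.86-fold in 2i. The log2 changes were 1.39 in serum (SE 0.485, limma adjusted p = 0.541) and 1.5 in 2i (SE 0.485, limma adjusted p = 0.268), and neither passed. Averaged over both media, Atf7ip rose by 1.45 (SE 0.343, 95% interval 0.72 to 2.18, limma adjusted p = 0.0401). In serum each knockdown library was higher than the control of the same number. In 2i, where the groups did not overlap, any matching of knockdown to control libraries would give the same. Of 24 alternative settings the averaged call held in 9, and the limma adjusted p ranged from 0.00176 to 0.138. Leaving out single libraries kept it without serum shScr library 1, serum shSetdb1 library 3 or 2i shScr library 2 and lost it without each of the 9 others, with changes of 1.26 to 1.71.

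In the same-numbered comparison Atf7ip was 2.74, 4.38 and 1.70 times its control in serum libraries 1 to 3 and 5.78, 1.19 and 4.32 times in 2i. The small ratio in 2i came from control library 2, which had the most Atf7ip reads of its group. Library numbers were not taken as pairs in 2i, so the 2i ratios of this and the other genes only describe values.

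Atf7ip2, the relative of Atf7ip, passed as higher after knockdown in 2i, by a narrow call that most alternative settings did not keep. Its serum controls had 262, 438 and 257 normalised reads and its serum knockdown libraries 440, 389 and 430. Its 2i controls had 211, 284 and 345 reads and its 2i knockdown libraries 545, 731 and 1150. The serum groups overlapped, because control library 2 reached the knockdown level, while every 2i knockdown library lay above every 2i control. In 2i Atf7ip2 rose 2.89-fold, by 1.36 on the log2 scale (SE 0.314, 95% interval 0.69 to 2.03, limma adjusted p = 0.0453). The call held in 3 of 19 alternative settings, with a limma adjusted p from 0.00648 to 0.261. Of these 3, 2 used the library number as a block, which was not taken to pair the 2i libraries, and 1 left out a single library. It held in 0 of the 10 settings that did neither (limma adjusted p 0.0538 to 0.229). It was lost without each of 2i shScr libraries 1, 2 and 3 and 2i shSetdb1 libraries 2 and 3, where the change was 1.09 to 1.51, and kept without 2i shSetdb1 library 1, at 1.60. The change in serum was 0.39 (95% interval −0.28 to 1.06, limma adjusted p = 1.00). Averaged over both media it was 0.88 (SE 0.222, 95% interval 0.40 to 1.35, limma adjusted p = 0.0625). The averaged change did not pass, but did so in 4 of 24 alternative settings. The change in 2i exceeded that in serum by 0.97 (SE 0.444, 95% interval 0.02 to 1.92), which had an unadjusted p of 0.0450 in limma and did not pass adjustment (limma adjusted p = 1.00), so a difference between the media was not shown. Within the 2i knockdown, Atf7ip2 was highest in library 3, the shallowest library, which also had the least Setdb1 and the largest share of structural RNA. The part of that library's composition in the result was not tested.

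Resf1 was the most abundant of the 3. In serum the controls had 8974, 7070 and 4809 normalised reads and the knockdown libraries 17755, 13038 and 6252. In 2i the controls had 3768, 3446 and 2359 and the knockdown libraries 11963, 6850 and 4524. Library 1 was the highest and library 3 the lowest in all 4 groups, so the serum groups overlapped through library 3 while the 2i groups did not overlap. Each knockdown library lay above the control of the same number, by 1.98, 1.84 and 1.30 times in serum and 3.18, 1.99 and 1.92 times in 2i. In 2i any other matching of the libraries would also put the knockdown above. The log2 changes of 0.75 in serum (SE 0.434, limma adjusted p = 1.00), 1.19 in 2i (SE 0.434, limma adjusted p = 0.406) and 0.97 averaged over both (SE 0.307, limma adjusted p = 0.182) did not pass. The 95% interval of the average, 0.31 to 1.62, lay above 0 before any adjustment for the number of genes. With the library number as a block, Resf1 passed in 2i (limma adjusted p = 0.00946) and averaged (limma adjusted p = 0.00203). The numbers were not taken to pair the 2i libraries, so this is given as a sensitivity only.

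Trim28, the KRAB zinc finger corepressor, was the most abundant member and had no detectable change. It had 22056, 15735 and 8832 normalised reads in the serum controls and 21187, 10211 and 8095 in the serum knockdown libraries. It had 14166, 10248 and 7698 in the 2i controls and 13214, 7433 and 7912 in the 2i knockdown libraries. Libraries of 1 group differed by up to 2.62-fold, and the order of the libraries was nearly the same with either shRNA. The knockdown mean was 84.7% of the control in serum (log2 change −0.27, 95% interval −1.21 to 0.67) and 88.9% in 2i (log2 change −0.17, 95% interval −1.12 to 0.77), with limma adjusted p = 1.00 and 0.960. The estimate in serum turned to 0.03 without shScr library 1 and to 0.02 without shSetdb1 library 3, and that in 2i to 0.05 without shScr library 1, so no direction is given.

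The HUSH subunit gene Mphosph8, whose product reads H3K9 methylation through a chromodomain, did not pass in either medium. It had 1282, 1384 and 1143 normalised reads in the serum controls and 1582, 1752 and 1190 in the serum knockdown. It had 1969, 1619 and 1146 in the 2i controls and 1905, 1481 and 650 in the 2i knockdown. Each knockdown group overlapped its control, with estimates of 0.23 in serum (95% interval −0.52 to 0.98, limma adjusted p = 1.00) and −0.32 in 2i (95% interval −1.07 to 0.43, limma adjusted p = 0.903). The negative estimate in 2i turned to 0.12 without 2i shSetdb1 library 3, the shallowest library. Mphosph8 overlaps Gm16973 in the RefSeq annotation, and whether strand was used in counting is not given here, so reads of the pair may be mixed.

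Pphln1, which encodes the periphilin subunit of HUSH, had 583, 513 and 267 normalised reads in the serum controls and 867, 718 and 364 in the serum knockdown. It had 486, 475 and 266 in the 2i controls and 643, 363 and 365 in the 2i knockdown. The serum knockdown was 1.49, 1.40 and 1.36 times the control of the same number, while the 2i ratios of 1.32, 0.765 and 1.37 fell on both sides of 1. The log2 changes of 0.46 in serum (95% interval −0.35 to 1.27, limma adjusted p = 1.00) and 0.14 in 2i (95% interval −0.67 to 0.95, limma adjusted p = 0.961) did not pass.

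Morc2a encodes the ATPase that compacts chromatin with HUSH. It had 1323, 1094 and 1071 normalised reads in the serum controls and 1727, 1545 and 962 in the serum knockdown, and 1489, 1563 and 854 in the 2i controls and 1623, 868 and 896 in the 2i knockdown. All groups overlapped. Its log2 changes were 0.24 in serum (95% interval −0.47 to 0.94) and −0.21 in 2i (95% interval −0.91 to 0.49), with limma adjusted p = 1.00 and 0.935. Morc2b, a related gene copy, had group means of only 4.05 to 18.7 normalised reads. Reads could have been divided between the pair in counting, which was not tested, so values of Morc2a are uncertain in that respect.

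Over the whole group, 1 of 8 members passed in serum, where 0.649% of all genes passed (94 of 14487, and 171 or 211 with the library number as a block, where Setdb1 was again the 1 member). In 2i, 2 of 8 passed, where 1.27% of all genes did. In both media averaged, 2 of 8 passed against 1.89% of all genes, namely Setdb1 and Atf7ip. By the count of genes whose knockdown and control libraries did not overlap, 1 of 8 members stood apart in serum against 9.71% of all genes. In 2i, 4 of 8 stood apart against 10.7% of all genes, and these were Setdb1, Atf7ip, Atf7ip2 and Resf1. Setdb1 is the target of the shRNA. Among the 7 other members, 6 of the estimates in serum and 4 in 2i lay above 0, with medians of 0.39 and 0.14 against medians of −0.002 and 0.012 over all genes. No member differed in its knockdown change between the media, where 0% of all genes passed, while 1 member, Atf7ip2, and 404 of all genes had an unadjusted p under 0.05 in limma. With voom weights 0 members and 0 of all genes passed.

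**Figure D2:**
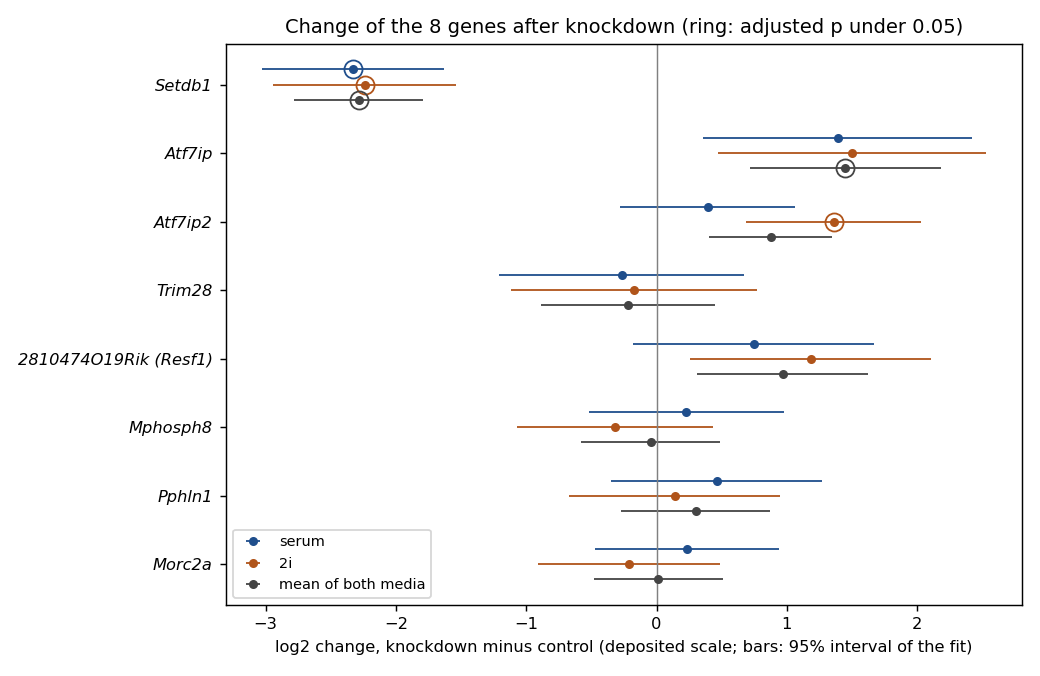
Log2 change of knockdown against control for the 8 genes in serum, in 2i and averaged over both media, with points at the limma estimate and bars for the unadjusted 95% intervals. Setdb1 lies far below 0 in all 3, the Atf7ip intervals lie above 0, and those of Trim28, Mphosph8, Pphln1 and Morc2a cross it.

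The media were compared in control cells and in knockdown cells. No member passed between 2i and serum in the controls, where 3.62% of all genes passed, nor in the knockdown, where 3.75% did. At an unadjusted p under 0.05 in limma there was 1 member in each, Resf1 in the controls and Atf7ip2 in the knockdown, against 17.3 and 18.5% of all genes, and with voom weights 0 members passed in either. In the controls, 1 of 8 members had groups that did not overlap, against 23.8% of all genes. This was Resf1, with 45.9% of its serum level in 2i (log2 change −1.09, 95% interval −2.02 to −0.17, limma adjusted p = 0.195). In the knockdown cells 1 of 8 did not overlap, against 19.1% of all genes, and this was Atf7ip2, 1.93 times as high in 2i (log2 change 0.82, 95% interval 0.15 to 1.49, limma adjusted p = 0.172). Setdb1 in the controls differed by 0.35 (95% interval −0.35 to 1.06, limma adjusted p = 0.657) and Atf7ip by −0.80 (95% interval −1.83 to 0.23, limma adjusted p = 0.439).

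Levels of different genes were compared per kilobase of the longest protein-coding transcript in GENCODE vM21, as normalised reads per kb. In serum controls Trim28 led at 4789 ± 2038 reads per kb (SD, n = 3), followed by Resf1 at 1146 ± 344, Setdb1 at 485 ± 147 and Mphosph8 at 432 ± 41.2. Morc2a stood at 206 ± 24.6, Pphln1 at 127 ± 46.4, Atf7ip2 at 115 ± 37.2 and Atf7ip at 78.9 ± 29.9. The neighbours Setdb1 and Mphosph8 overlapped in range, as did Pphln1, Atf7ip2 and Atf7ip, so their order is not settled. In 2i controls Trim28 led again at 3299 ± 1004, with Setdb1 at 614 ± 148, Mphosph8 at 537 ± 141 and Resf1 at 526 ± 122 next, all 3 overlapping in range, and Atf7ip last at 47.0 ± 31.5. Trim28 was first in all 4 groups. Setdb1 moved from place 3 to place 8 in serum and from place 2 to place 7 in 2i after knockdown, at 86.4 ± 4.43 and 128 ± 53.4 reads per kb. In 2i it shared that last place with Pphln1. In the knockdown cells Atf7ip, at 232 ± 117 reads per kb in serum and 134 ± 62.4 in 2i, had a higher mean than Setdb1, and in both control groups a lower one. The ranges of Atf7ip and Setdb1 overlapped in the 2i knockdown, so their order there is not settled. The transcript in use in these cells was not measured, so these levels depend on the length taken.

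**Figure D3:**
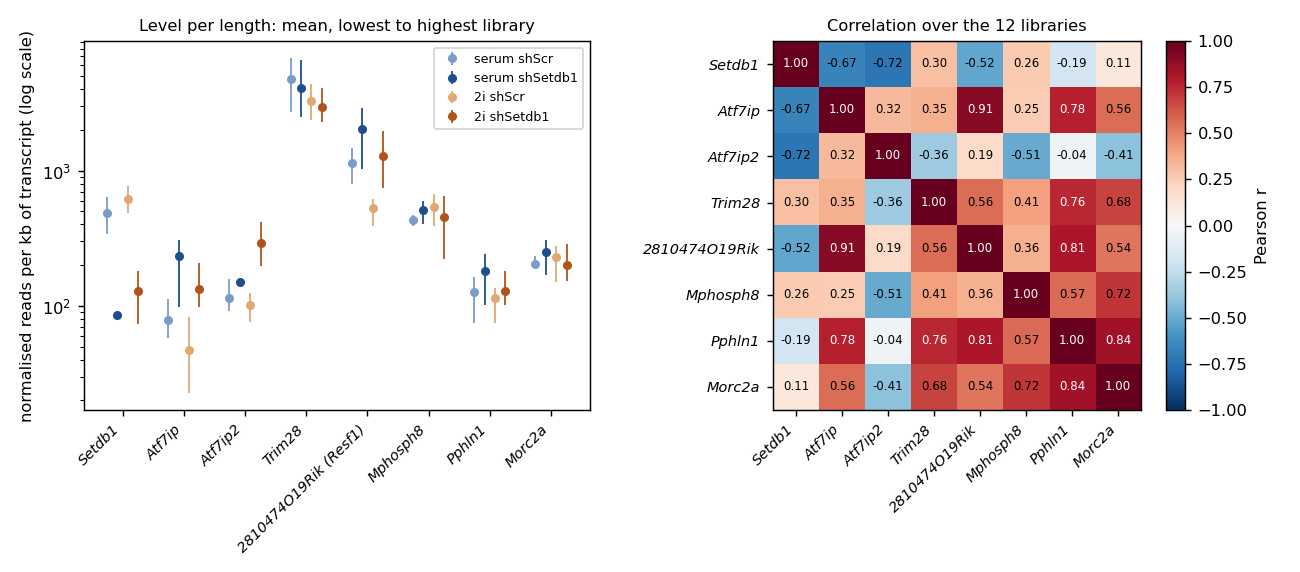
Left, normalised reads per kb of the 8 genes in each group on a log axis, with group means and ranges. Right, Pearson r between members over the 12 libraries, where Atf7ip with Resf1 is highest and Setdb1 with Atf7ip2 lowest.

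Among the members, the pair most alike over the 12 libraries was Atf7ip and Resf1, with Pearson r = 0.914, and with r = 0.830 after the mean of each group was taken out. Pphln1 and Morc2a followed at 0.836, and Resf1 and Pphln1 at 0.810. The least alike were Setdb1 and Atf7ip2, at −0.723. Within groups, where the shRNA is the same in all libraries, Setdb1 and Resf1 turned from −0.522 to 0.730 and Setdb1 and Atf7ip from −0.667 to 0.437. The values share the libraries and their composition. Of the 8 genes, library 3 was the lowest in all 4 groups for Atf7ip, Resf1 and Mphosph8, and in 3 of 4 for Setdb1, Trim28, Pphln1 and Morc2a. Atf7ip2 alone was highest in library 3, in 2 groups.

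Outside the members, the genes with the most similar pattern to Setdb1 were Nrp2, a semaphorin and VEGF co-receptor (r = 0.925), and the small GTPase Mras (r = 0.907). Nrp2 averaged 165 normalised reads in serum shScr and 46.0 in serum shSetdb1, and 361 and 58.7 in 2i. Those nearest to Atf7ip were Ldoc1 (r = 0.935) and Atxn1l (r = 0.931). Those nearest to Atf7ip2 were Snx16, a sorting nexin, at r = 0.973 and Gm5799 at r = 0.951, the latter with only 0.888 to 52.1 reads as group means. Snx16 averaged 418 reads in 2i shScr and 1094 in 2i shSetdb1, against 479 and 606 in serum. For Resf1 they were Mfap3l (r = 0.958) and Clvs2 (r = 0.954). For Trim28 they were Dhx15 (r = 0.981) and Caprin1 (r = 0.966), for Mphosph8 Kif15 (r = 0.954) and Sart1 (r = 0.938), for Pphln1 Nap1l1 (r = 0.947) and Med23 (r = 0.944), and for Morc2a Zc3h4 (r = 0.959) and Eif4enif1 (r = 0.956). All are over 12 libraries and are the highest of all genes tested, so a high r was sought.

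The pathway around the members was read from 6 lists of 64 genes, of which 63 were tested. They were other HUSH partners, KRAB zinc finger recruiters of Trim28, SETDB1 binding and modifying factors, other H3K9 methyltransferases and readers, H3K9 demethylases, and chaperones, remodellers and DNA methyltransferases of retroelement silencing. After knockdown 0 of 63 passed in serum in limma, with 4 at an unadjusted p under 0.05, against 5.09% of all genes, and 0 with voom weights. In 2i, 1 of 63 rose and none fell, where 1.27% of all genes passed, and voom weights gave the same gene. The list median was −0.02 in serum and −0.11 in 2i against −0.002 and 0.012 over all genes. The gene that rose is listed as BC016423, entered in the HUSH list as an older symbol of Tasor2. The RefSeq gene names used here do not pair the 2, so its identity is not certain. It had 577, 859 and 239 normalised reads in the 2i controls and 8782, 3732 and 4048 after knockdown, without overlap, and rose by 3.25 on the log2 scale (SE 0.537, limma adjusted p = 0.00441). In serum it had 2390, 2132 and 729 against 10379, 5611 and 3303, also without overlap, at 1.86 (SE 0.537, limma adjusted p = 0.255). None of the 9 KRAB zinc finger genes passed in either medium, with Rex2 highest in serum at 0.65 and Gm15446 in 2i at 0.84. Gm13139, which RefSeq names Zfp991, had been entered by mistake as another name of Rex2, stands outside these counts and is named after its values were seen. It had 1205, 1261 and 1253 normalised reads in the 2i controls and 2878, 2915 and 2541 in the knockdown libraries, without overlap, and rose by 1.13 (SE 0.238, limma adjusted p = 0.0248). The call of Gm13139 held in 9 of 19 alternative settings (limma adjusted p 0.00493 to 0.140), and of the 6 libraries of 2i left out one at a time it was kept only without shSetdb1 library 1. None of the 18 SETDB1 binding and modifying factors passed, with the ubiquitin-conjugating enzyme gene Ube2e2 highest in serum at 1.05 and in 2i at 0.67. None of the 13 chaperones, remodellers and DNA methyltransferases passed after knockdown, with Dnmt3a highest at 1.10 in serum and 0.48 in 2i. No other methyltransferase or reader passed, with Suv39h1 highest in serum at 0.36. Among demethylases Jhdm1d was highest in both media, at 0.41 and 0.21. Between the media, the de novo DNA methyltransferase Dnmt3a was lower in 2i than in serum in the controls (0.192 times the serum mean, limma adjusted p = 0.0144) and in the knockdown (0.127 times, limma adjusted p = 0.00387). The call in the controls was lost without serum shScr library 1 or 2 or 2i shScr library 3 (limma adjusted p of Dnmt3a 0.0596 to 0.0870). In the knockdown, Phf6 and Suv39h1, the latter another H3K9 methyltransferase, also fell, to 0.261 and 0.392 times, with limma adjusted p = 0.0371 for both. Phf6 held in 8 and Suv39h1 in 7 of 18 alternative settings, and with voom weights neither passed. Both were lost without each of serum shSetdb1 libraries 1, 2 and 3 and without 2i shSetdb1 library 3, and Suv39h1 also without 2i shSetdb1 library 2.

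The repeat families whose silencing SETDB1 is known for were set beside the Setdb1 level, library by library. IAPEz-int stood at 2.85, 2.96 and 5.45 times the control mean in the serum knockdown libraries and 16.4, 15.7 and 19.2 times in the 2i knockdown libraries. MMERVK10C-int stood at 14.7, 12.3 and 6.55 times in serum and 20.1, 3.51 and 5.10 times in 2i. MMERGLN-int stood at 55.7, 121 and 26.2 times in serum and 52.3, 18 and 20.6 times in 2i. The 3 families did not rank the libraries alike. Within 2i, IAPEz-int was highest in library 3, which had the least Setdb1 at 11.9% of the control mean. MMERVK10C-int and MMERGLN-int were highest in library 1, which had the most at 29.2%. Within serum, 18.5, 16.8 and 18.1% of Setdb1 was left in libraries 1 to 3. There IAPEz-int was highest in library 3, MMERVK10C-int in library 1 and MMERGLN-int in library 2. ETnERV2-int had lower folds, 1.73 to 2.84 in serum and 1.59 to 4.51 in 2i. MERVL-int stood at 0.422 to 1.13 times its control in serum and at 18.9, 1.55 and 4.18 times in 2i. Setdb1 left over and repeat level are given as values of 6 libraries, with no test.

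**Figure D4:**
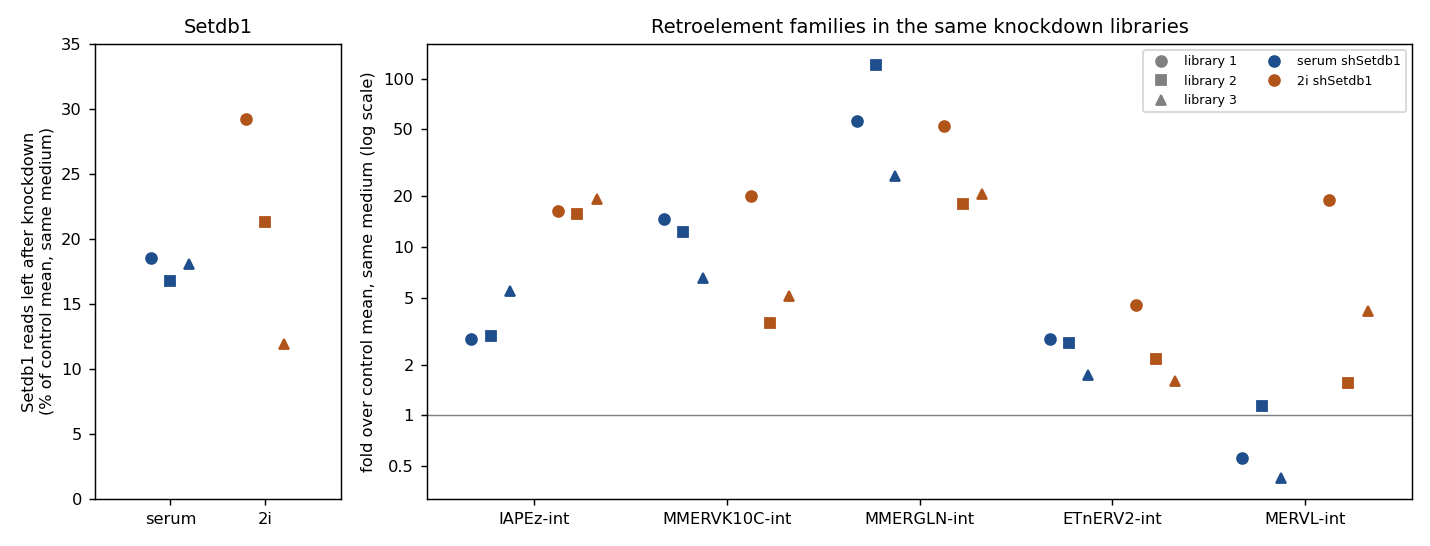
Left, Setdb1 reads left in each of the 6 knockdown libraries as a percent of the control mean of the medium. Right, the fold of each repeat family over its control mean in the same libraries, on a log axis, with a marker per library number. IAPEz-int is higher in the 2i libraries than in the serum libraries, and the other families vary among libraries of 1 medium.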

How the data were processed

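Total RNA of 12 libraries was depleted of ribosomal RNA and sequenced strand-specifically, per the labels' protocols. The authors deposited variance-stabilised values on a log2 scale for 26061 genes and, in a separate table, 1217 repeat families. Per the submitters' processing notes, the authors worked on mm9 with TopHat2 2.0.9 after Trim Galore 0.3.3 and also used DESeq2. The sources used here give neither the counting tool nor the annotation. Inverting the transformation returned whole reads for 100% of values within 0.01 of a read. Normalised reads are these reads over the size factors; their precision covers counting error only.

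Tests ran on the deposited log2 values in limma 3.58.1 (R 4.3.3), with 1 mean per group over the 12 libraries, 8 residual degrees of freedom and a mean-variance trend. Genes were kept when their mean lay 0.5 above the lowest value of 4.4522, and p-values were adjusted by Benjamini-Hochberg over the 14487 kept genes at a threshold of 0.05. Tests are two-sided. A change on this scale understates that of genes with few reads, and folds use mean normalised reads. The tests were tried on simulated counts with the same relative spread for all genes and no effect of library number. Those settings are simpler than these data, so the trial does not show how the tests behave here. The members, lists and tests were chosen with earlier results of these data known. Named genes were the 8 members, list genes that passed, the highest or lowest of a list, and the 2 genes most correlated with each member. Alternatives were other filters, scalings and variance models, voom, the library number as a block, and leaving out libraries.

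In serum, control and knockdown libraries with the same number deviated together (r = 0.582, 0.234 and 0.510 over genes), so the numbers pair them. The main tests did not use this pairing, and fits with the library number as a block are given as alternatives.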

Additional observations from a re-analysis of the deposited data

How the results depend on the processing

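Setdb1 kept its call in 19 of 19 alternatives in each medium (−2.57 to −2.12 in serum, −2.51 to −1.91 in 2i). The count of members that passed in 2i was 2, and it was 1 under no filter, the filter of 1.5, centring, quantile scaling, log2(normalised reads + 0.5), voom with either scaling, no trend, only the 6 libraries compared, and with the libraries numbered 3 left out. The last of these was chosen after seeing the data. The count became 4 with a replicate block, whole or within medium (Setdb1, Atf7ip, Atf7ip2 and Resf1), and 1 to 2 when 1 library was left out. Averaged over both media the count was 2, and 1 under either filter change, log2(normalised reads + 0.5), voom with either scaling and no trend, 4 with either replicate block, and 1 to 2 without single libraries. Between the media in controls it was 0, and 1 with the replicate block (Resf1). The causes were not tested. In 2i and between the media the numbers were not taken as pairs, since the rule used asked for every same-numbered r to be over 0.1. In 2i those of libraries 1 to 3 were 0.456, 0.057 and 0.524, against at most −0.282, 0.287 and 0.186 with other numbers. Only library 2 fell short there. Between the controls of both media they were 0.232, −0.177 and 0.219. With the replicate block the limma adjusted p of Resf1 (listed as 2810474O19Rik) went from 0.406 to 0.00946 in 2i and from 0.182 to 0.00203 averaged. In serum the block gave a limma adjusted p of 0.233 for Resf1 and took that of Atf7ip from 0.541 to 0.0699. That block fits the same number effects in both media. The block within medium fits the numbers of each medium apart, and gave limma adjusted p of 0.241 for Resf1 and 0.0808 for Atf7ip in serum. Neither gene passed in serum with either block.

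Counts of all genes moved as well. In serum the 94 became 37 to 69 without single libraries, 54 at the lowest otherwise, and 171 or 211 with a block. In 2i the 184 became 99 to 253, 88, and 321 or 425. Averaged, the 274 became 210 to 342, 192 at the lowest otherwise, and 494 or 630 with a block. For the difference of changes the 0 became at most 1 without single libraries and 2 with a block. Between the media in controls the 524 became 171 to 466, 314, and 1351 with a block, and in knockdown cells the 543 became 144 to 1522, 195, and 1583. Voom with total reads shifted the median of all genes to −0.113 between the media in knockdown cells.

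Estimates that turned sign passed in no setting. Without single libraries the difference of changes ranged from −0.41 to 0.57 for Atf7ip, −0.18 to 0.42 for Setdb1 and −0.21 to 0.50 for Trim28. Atf7ip was −0.42 with the libraries numbered 3 left out, with or without the block, and Trim28 was −0.0027 under quantile scaling and −0.016 under voom with total reads. In the same way Trim28 ranged from −0.67 to 0.032 in serum, −0.43 to 0.050 in 2i and −0.68 to 0.016 between the media in knockdown cells. Atf7ip2 between the media in controls ranged from −0.29 to 0.075. Morc2a averaged over both media ranged from −0.13 to 0.14 and was −0.034 with centring and −0.029 under voom with total reads, and between the media in controls it ranged from −0.034 to 0.39. Mphosph8 ranged from −0.62 to 0.12 in 2i, from −0.20 to 0.17 averaged and from −0.58 to 0.17 between the media in knockdown cells, and with the libraries numbered 3 left out the last 2 were 0.11 and 0.013. Pphln1 ranged from −0.11 to 0.28 in 2i and from −0.43 to 0.14 between the media in controls. Depth limits 2i shSetdb1 library 3, with 4821181 gene reads, most.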
